A study of Homo sapiens with 4 samples.

Results

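The 10 genes described here break down heme or handle the iron that it releases, and they were chosen by symbol, matched to the Ensembl identifiers of a table of 58233 genes. HMOX1, HMOX2, BLVRA and BLVRB act in heme breakdown, FTH1, FTL and NCOA4 in iron storage, SLC40A1 and TFRC in iron export and uptake, and FECH in the last step of heme synthesis. The cells were MIA PaCa-2 and PANC-1, established human pancreatic cancer lines both labelled as wild type, whose messenger RNA was sequenced after 24 h with cannabichromene (CBC), a cannabinoid of the hemp plant, or with PBS. Each of the 4 conditions (MIA PaCa-2 with PBS, MIA PaCa-2 with CBC, PANC-1 with PBS, PANC-1 with CBC) had 1 library. According to the methods, CBC was given near the inhibitory concentration found for each line, which was slightly higher in MIA PaCa-2 cells, so the line and the concentration cannot be told apart. The labels name the controls PBS, whereas the methods speak of a vehicle control and of acetonitrile as the solvent of CBC, so an effect of the solvent and one of CBC cannot be told apart from the labels. The comparison asked how the messages of heme breakdown and iron handling differed after CBC in each line, and how the lines differed before it.

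Heme oxygenases open the heme ring and release iron, carbon monoxide and biliverdin, and biliverdin reductases turn biliverdin into bilirubin. Free iron is stored in ferritin, a shell of heavy (FTH1) and light (FTL) subunits, which the cargo receptor NCOA4 carries to the lysosome when iron is needed. Iron enters most cells bound to transferrin through the transferrin receptor TFRC and leaves through ferroportin, the product of SLC40A1. When iron is scarce, iron regulatory proteins bind a hairpin of the mRNA, the iron-responsive element, which blocks translation when it lies in the 5′ UTR and stabilizes the mRNA when it lies in the 3′ UTR of TFRC.

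The iron-responsive elements were read from the mRNAs because they mark the members whose mRNAs iron regulatory proteins can bind. The pattern searched was an unpaired C, 5 bases, the loop CAGTGN (N being any base but G) and 5 bases that pair with the first 5, with G-T pairs allowed and 5 flanking bases of the lower stem on each side. It was found in 4 of the 10 members, namely FTH1, FTL, SLC40A1 and TFRC, against 191 of 20457 canonical protein-coding transcripts (0.934%) of GENCODE release 44 on GRCh38. FTH1, FTL and SLC40A1 held 1 match each in the 5′ UTR, and TFRC held 4 in its 3′ UTR. These are counts of matches, since a strict pattern can miss elements that depart from it. HMOX1, HMOX2, BLVRA, BLVRB, NCOA4 and FECH held no match to these letters. The elements of FTL (chr19:48965336-48965362, plus strand), SLC40A1 (chr2:189580662-189580688, minus strand) and TFRC (chr3:196050980-196051006, chr3:196050576-196050602, chr3:196050511-196050537 and chr3:196050464-196050490, minus strand) are given 5′ to 3′ with T for U, and the capitals mark the loop.
FTL: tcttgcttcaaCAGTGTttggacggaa
SLC40A1: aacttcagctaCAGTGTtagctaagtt
TFRC, first element: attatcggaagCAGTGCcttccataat
TFRC, second element: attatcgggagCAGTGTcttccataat
TFRC, the third element: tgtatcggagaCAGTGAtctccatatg
TFRC, the fourth element: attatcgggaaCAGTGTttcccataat

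The libraries held 21742775 to 27903667 counts on genes. Levels are given as counts or as CPM, the counts scaled to a common library size, on library sizes scaled by the trimmed mean of M-values (TMM), and levels of different genes are compared only as CPM per kb of the canonical transcript. A limit of 3 counts corresponded to 0.110 to 0.135 CPM. With 1 library per condition, differences within a line have no replicate check, and their 95% intervals (Clopper-Pearson, from the ratio of the counts) cover counting error only. Within a line, only genes that reached 1 CPM in either library were considered, and a gene was called when it was past 2-fold, that is beyond 1 or -1 on the log2 scale. The epithelial keratin genes KRT8 and KRT18 and the mesenchymal gene VIM were abundant in all 4 libraries, although EPCAM and CDH1 had at most 1 count in MIA PaCa-2 cells. Of the other mesenchymal markers, ZEB1 lay at 43.1 to 101 CPM. CDH2 had 0 counts in both MIA PaCa-2 libraries, and 725 and 507 counts in PANC-1 cells with PBS and CBC. The summed level of the 6 epithelial markers in MIA PaCa-2 cells was 3476 CPM with PBS and 2553 CPM with CBC, and in PANC-1 cells it was 2045 and 1206 CPM. KRT8, KRT18 and KRT19 made up nearly all of these sums and were lower after CBC in both lines. KRT7 was higher after CBC in MIA PaCa-2 cells (0.0899 and 2.10 CPM), as was CDH1 in PANC-1 cells (1.41 and 4.79 CPM). Of the 4 fibroblast markers, DCN and LUM had 0 counts. In the MIA PaCa-2 libraries the 4 markers summed to 368 CPM with PBS and 95.5 CPM with CBC. Nearly all of this was COL1A2 (368 and 94.9 CPM), with COL1A1 at 0.495 and 0.526 CPM. For PANC-1 the sums were 134 and 46.4 CPM, nearly all from COL1A1 (134 and 46.4 CPM), with COL1A2 at 0 and 0.0366 CPM. A different gene thus carried the sum in each line. The erythroid markers HBB, HBG1 and ALAS2 had 0 counts in every library, HBA2 had 1 or 2, and HBA1 had 6 counts in CBC-treated PANC-1 cells and at most 1 elsewhere. The 5 macrophage markers, with PTPRC and CD163 at 0 counts, summed to 0.915 to 5.58 CPM. Their sum was lower after CBC in both lines through CD14 (5.53 and 0.728 CPM in the MIA PaCa-2 libraries, 1.41 and 0.0732 CPM in those of PANC-1), whereas CD68 was higher (0.0450 and 0.364 CPM, 0.528 and 0.805 CPM) and CSF1R had at most 4 counts. Mitochondrially encoded transcripts took 5.81% of counts in the MIA PaCa-2 control and 3.86% after CBC, and 4.63% in the PANC-1 control and 2.42% after CBC. The part of these library-wide differences in the values below was not tested.

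HMOX1 and the ferritin subunits FTH1 and FTL were higher after CBC in both lines, whereas HMOX2 and BLVRA stayed close to their control levels. NCOA4 did so in MIA PaCa-2 cells and was slightly lower in PANC-1 cells (-0.26 on the log2 scale). BLVRB was higher mainly in PANC-1 cells, TFRC was lower mainly in MIA PaCa-2 cells, and FECH was lower in MIA PaCa-2 and higher in PANC-1 cells. SLC40A1 was not detectable at this depth. In MIA PaCa-2 cells, 2 of the 9 members tested were called higher (HMOX1 and FTH1) and 0 lower, where 11.5% of all tested genes were called higher and 8.97% lower. In PANC-1 cells, 4 of 9 were called higher (HMOX1, BLVRB, FTH1 and FTL) and 0 lower, where 7.71% of all tested genes were called higher and 7.03% lower. The median log2 fold change of the members was 0.043 in MIA PaCa-2 and 0.50 in PANC-1 cells, beside -0.014 and 0.020 over all tested genes. A test over all 4 libraries used both lines, with cell line as a blocking term in edgeR's quasi-likelihood test and Benjamini-Hochberg adjustment over 16381 genes. There, 3 of 9 members rose (HMOX1, FTH1 and FTL) and 0 fell, where 2.26% of all genes rose and 2.45% fell. This test has 2 libraries on each side and 1 residual degree of freedom. Its p-values rest on the spread between 2 cell lines, moderated by a variance estimated over all tested genes. They do not measure the spread between replicate cultures. Without the block for the cell line, 0 of the 9 members passed.

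**Figure D1:**
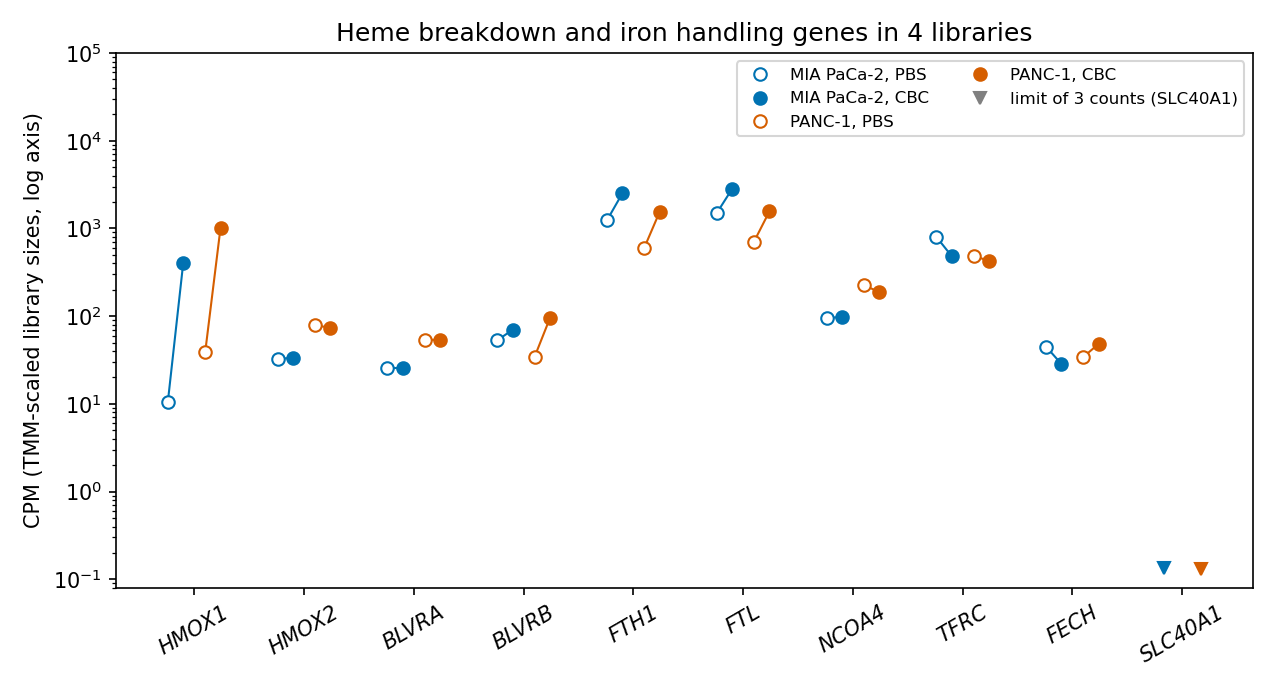
Level of each member in the 4 libraries, in CPM on TMM-scaled library sizes on a log axis, with open symbols for PBS and filled symbols for CBC, blue for MIA PaCa-2 and orange for PANC-1. The lines for HMOX1 are steep in both cell lines (10.6 to 403 CPM and 38.8 to 1022 CPM), those for HMOX2 and BLVRA are nearly flat, and SLC40A1 is drawn as a triangle at the limit of 3 counts.

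HMOX1 (ENSG00000100292, chromosome 22, 35380361 to 35394214, plus strand, GRCh38), the stress-inducible heme oxygenase, had 235 counts in the MIA PaCa-2 control and 9976 after CBC, and 882 in the PANC-1 control and 27932 after CBC. Both CBC libraries lay above both controls, and in bulk RNA a larger share of cells with the message and more message per cell cannot be told apart. The change was 5.24 (5.07 to 5.45) in MIA PaCa-2 cells, or 37.9-fold, on the log2 scale and 4.72 (4.62 to 4.82) in PANC-1 cells, or 26.3-fold. The increase across both lines was 4.99 on the log2 scale (95% interval 4.43 to 5.55, SE 0.24, adjusted p = 0.000761 in edgeR's quasi-likelihood test). Among 19683 protein-coding genes ordered by CPM per kb, HMOX1 moved from position 7035 to 178 in the MIA PaCa-2 libraries and from 3284 to 55 in those of PANC-1 cells. Among the 9 detected members it moved from the eighth to the third place by CPM per kb in both lines, behind FTL and FTH1.

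HMOX2 (ENSG00000103415, chromosome 16, 4474690 to 4510347, plus strand), the constitutive heme oxygenase, had 730 and 824 counts in MIA PaCa-2 cells with PBS and CBC, and 1811 and 2000 counts in PANC-1 cells. Its libraries were ordered by cell line and not by treatment. The log2 fold change was 0.02 (-0.12 to 0.17) in MIA PaCa-2 and -0.12 (-0.21 to -0.03) in PANC-1 cells, and across both lines it was -0.045 (95% interval -0.55 to 0.47, adjusted p = 0.936, edgeR's quasi-likelihood test), turning to 0.017 when libraries were scaled by their totals. The ratio of HMOX1 to HMOX2, both per kb, was 0.347 in the MIA PaCa-2 control and 13.0 after CBC. In PANC-1 cells the ratio was 0.524 in the control and 15.0 after CBC. HMOX2 was thus the more abundant heme oxygenase message in both controls, and HMOX1 in both CBC libraries.

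BLVRA (ENSG00000106605, chromosome 7, 43758680 to 43807342, plus strand), biliverdin reductase A, had 576 and 629 counts in MIA PaCa-2 cells with PBS and CBC, and 1223 and 1465 counts in PANC-1 cells. The scaled levels were 25.9 and 25.4 CPM in the former line and 53.8 and 53.6 CPM in the latter, so the treated and control libraries of each line lay next to each other. Its log2 fold changes of -0.026 (-0.19 to 0.14) and -0.0047 (-0.12 to 0.11) had counting intervals that include 0, and both turned positive with library totals, at 0.038 and 0.065. Across both lines the change of -0.0091 (95% interval -0.54 to 0.52) did not pass edgeR's quasi-likelihood test (adjusted p = 0.987).

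BLVRB (ENSG00000090013, chromosome 19, 40447765 to 40465764, minus strand), biliverdin reductase B, which also reduces flavins, had 1177 counts in the MIA PaCa-2 control and 1730 after CBC, and 777 in the PANC-1 control and 2585 after CBC. The CBC library was the higher one in each line. The log2 fold change was 0.40 (0.29 to 0.51) in MIA PaCa-2 cells, or 1.32-fold, and 1.47 (1.35 to 1.59) in PANC-1 cells, or 2.76-fold. The 2 changes differed by 1.07 on the log2 scale, a difference that was not tested. Across both lines the value was 0.94 (95% interval 0.27 to 1.61, SE 0.29), with an adjusted p of 0.115 in edgeR's quasi-likelihood test. The ratio of BLVRB to BLVRA per kb was 2.75 in the MIA PaCa-2 control and 3.70 after CBC. In PANC-1 cells it was 0.854 in the control and 2.37 after CBC, so that the order of the reductase messages differed between the PANC-1 libraries. In MIA PaCa-2 and PANC-1 cells, the ratio of HMOX1 to BLVRB per kb went from 0.103 to 2.96 in the former line and from 0.584 to 5.56 in the latter.

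**Figure D2:**
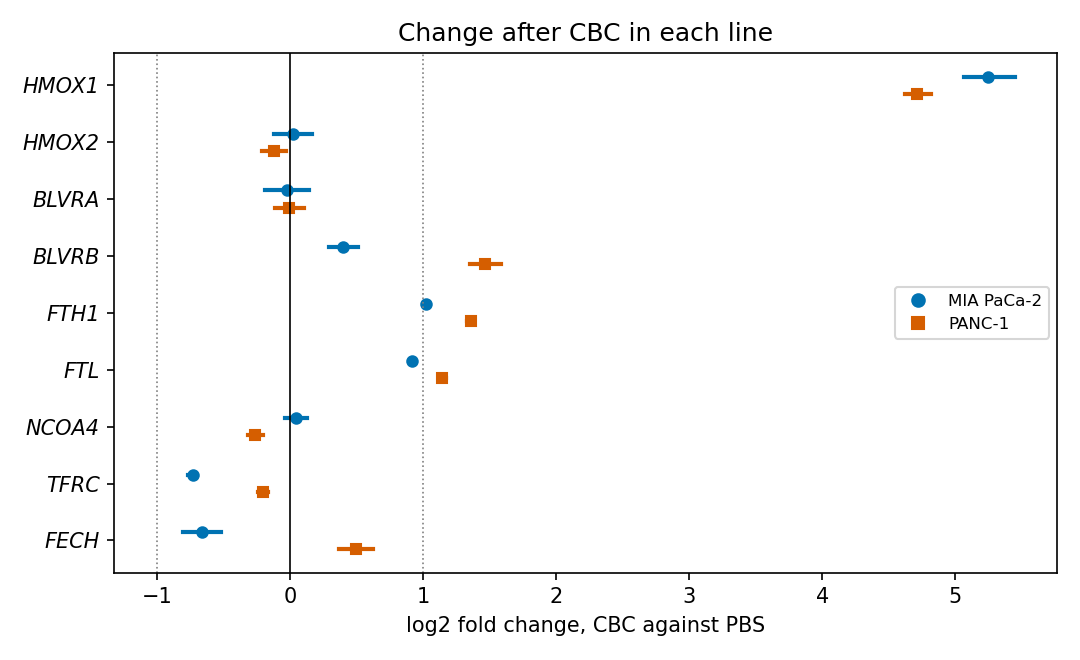
Log2 fold change of the 9 detected members after CBC against PBS, with circles for MIA PaCa-2, squares for PANC-1, bars for the 95% counting interval and dotted lines at the 2-fold threshold. HMOX1 lies at 5.24 and 4.72, FTH1 and FTL lie near 1 in both lines, BLVRB passes the threshold in PANC-1 cells and not in MIA PaCa-2 cells, and the FECH values lie on opposite sides of 0.

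FTH1 (ENSG00000167996, chromosome 11, 61959718 to 61967634, minus strand), the ferritin heavy subunit, which oxidizes ferrous iron, had 27516 and 62069 counts in MIA PaCa-2 cells with PBS and CBC, and 13706 and 42228 counts in PANC-1 cells. Both CBC libraries lay above both controls. Its log2 fold change was 1.02 in MIA PaCa-2 cells, at the threshold, with a counting interval of 0.9996 to 1.04, and 1.36 (1.33 to 1.39) in PANC-1 cells. Across both lines FTH1 rose by 1.20 on the log2 scale (95% interval 0.81 to 1.58, SE 0.17, adjusted p = 0.0144 in edgeR's quasi-likelihood test).

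FTL (ENSG00000087086, chromosome 19, 48965309 to 48966879, plus strand), the ferritin light subunit, which helps the iron core form, had 33281 and 69746 counts in MIA PaCa-2 cells with PBS and CBC, and 16124 and 42786 counts in PANC-1 cells. As for FTH1, both CBC libraries lay above both controls, and in each treatment MIA PaCa-2 cells had the higher level. For FTL, however, CBC-treated PANC-1 cells (1566 CPM) were only just above the MIA PaCa-2 control (1497 CPM) on TMM-scaled library sizes. The log2 fold change was 0.91 (0.90 to 0.93), or 1.88-fold, in MIA PaCa-2 cells, just under the threshold, and 1.14 (1.12 to 1.17), or 2.21-fold, in PANC-1 cells. Across both lines FTL rose by 1.03 on the log2 scale (95% interval 0.67 to 1.40, SE 0.16, adjusted p = 0.0172 in edgeR's quasi-likelihood test). FTL reached the highest level per kb of all 19683 protein-coding genes in CBC-treated MIA PaCa-2 cells, at 3237 CPM per kb, from position 14 in the control. In PANC-1 cells it moved from position 41 to 4.

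Together the ferritin subunits took 0.280% of all counts (95% interval 0.277 to 0.282) in the MIA PaCa-2 control and 0.570% (0.567 to 0.573) after CBC. In PANC-1 cells they took 0.122% (0.121 to 0.124) in the control and 0.305% (0.303 to 0.307) after CBC. The ratio of FTL to FTH1 per kb was 1.67 in the MIA PaCa-2 control and 1.55 after CBC, and 1.62 in the PANC-1 control and 1.40 after CBC. The light subunit message was the more abundant one per kb in all 4 libraries, by less after CBC in both lines. Processed pseudogenes could share reads with both genes. The 25 FTH1 pseudogenes held at most 0.441% and the 16 FTL pseudogenes at most 0.0571% of the summed counts, and adding them left the log2 fold changes at 1.02 and 1.36 for FTH1 and at 0.91 and 1.14 for FTL.

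NCOA4 (ENSG00000266412, chromosome 10, 46005088 to 46030623, minus strand), the receptor for ferritin turnover, had 2116 and 2425 counts in MIA PaCa-2 cells with PBS and CBC, and 5135 and 5149 counts in PANC-1 cells. Like HMOX2 and BLVRA, it was ordered by cell line and not by treatment. Its log2 fold change was 0.04 (-0.04 to 0.13) in MIA PaCa-2 and -0.26 (-0.32 to -0.21) in PANC-1 cells, and across both lines it was -0.10 (95% interval -0.57 to 0.37, adjusted p = 0.821, edgeR's quasi-likelihood test).

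SLC40A1 (ENSG00000138449, chromosome 2, 189560590 to 189583758, minus strand), which encodes the iron exporter ferroportin, had 1 count in CBC-treated MIA PaCa-2 cells and 0 counts in the other 3 libraries. All 4 values were under the limit of 3 counts, so the gene was not tested and no fold change is given.

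TFRC (ENSG00000072274, chromosome 3, 196012511 to 196082153, minus strand), the transferrin receptor, had 17886 and 11969 counts in MIA PaCa-2 cells with PBS and CBC, and 11122 and 11620 counts in PANC-1 cells. This was 804 and 484 CPM in the former line and 489 and 425 CPM in the latter, and the MIA PaCa-2 control stood above the other 3 libraries. On the log2 scale the difference was -0.73 (-0.77 to -0.70) in MIA PaCa-2 cells, to 0.602 of the control level, and -0.20 (-0.24 to -0.16) in PANC-1 cells. Across both lines it was -0.46 (95% interval -0.91 to -0.017, SE 0.19), with an unadjusted p of 0.0437 and an adjusted p of 0.222 in edgeR's quasi-likelihood test across all genes. The ratio of FTH1 to TFRC per kb, storage against uptake, was 6.41 in the MIA PaCa-2 control and 21.6 after CBC. In PANC-1 cells it was 5.13 in the control and 15.1 after CBC. The counts measure mRNA, and the use of the elements shown above by the iron regulatory proteins was not measured.

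FECH (ENSG00000066926, chromosome 18, 57544377 to 57586732, minus strand), ferrochelatase, which inserts iron into protoporphyrin, had 1001 and 704 counts in MIA PaCa-2 cells with PBS and CBC, and 781 and 1324 counts in PANC-1 cells. The CBC library was the lower one in MIA PaCa-2 and the higher one in PANC-1 cells. On the log2 scale the difference was -0.66 (-0.80 to -0.52) in MIA PaCa-2 and 0.50 (0.37 to 0.63) in PANC-1 cells, neither past 2-fold. The difference between the lines, 1.16 on the log2 scale, was not tested. Across both lines the value was -0.075 (95% interval -0.79 to 0.64, adjusted p = 0.922, edgeR's quasi-likelihood test).

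**Figure D3:**
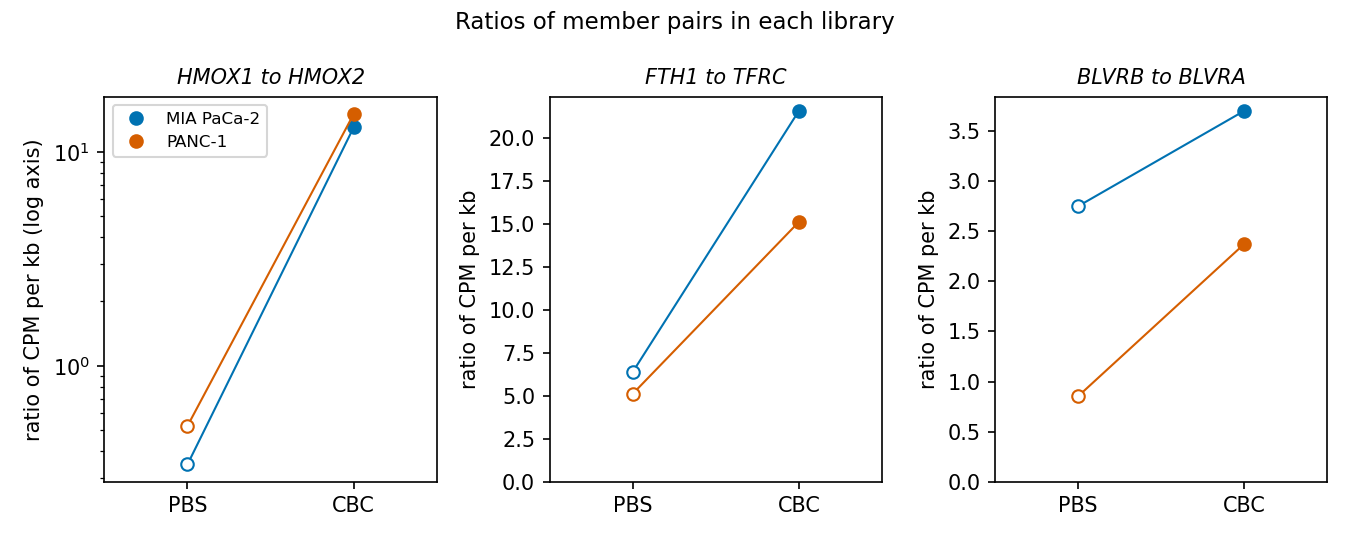
Ratios of CPM per kb for 3 pairs of members in each library, with open symbols for PBS, filled symbols for CBC, blue for MIA PaCa-2 and orange for PANC-1 (log axis for HMOX1 to HMOX2, axes from 0 for the others). All 3 ratios were higher in the CBC library of each line, with HMOX1 to HMOX2 going from 0.347 to 13.0 and from 0.524 to 15.0.

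The lines differed in most members before treatment. Among the PBS libraries, 4 of 9 members were past 2-fold higher in PANC-1 cells (HMOX1, HMOX2, BLVRA and NCOA4) and 2 were past 2-fold lower (FTH1 and FTL), where 24.0% of all tested genes were called higher and 18.0% lower. HMOX1 was 3.65-fold higher in PANC-1 cells (log2 1.87, 1.67 to 2.09), HMOX2 was 2.42-fold higher (1.28, 1.15 to 1.40) and NCOA4 was 2.37-fold higher (1.25, 1.17 to 1.32). BLVRA was 2.07-fold higher (1.05, 0.91 to 1.20) and fell under the threshold, at 0.92, when libraries were scaled by their totals. FTH1 differed by -1.04 (-1.07 to -1.01) and FTL by -1.08 (-1.10 to -1.05), both lower in PANC-1 cells. BLVRB (-0.63, -0.76 to -0.50), TFRC (-0.72, -0.75 to -0.68) and FECH (-0.39, -0.53 to -0.25) were also lower in PANC-1 cells but not past 2-fold. PANC-1 cells thus held more message of both heme oxygenases and of BLVRA and less of both ferritin subunits.

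Averaged over both treatments, the cell line was tested in the same edgeR fit with treatment as the other term. The same 4 members were higher and the same 2 lower in PANC-1 cells at an adjusted p under the threshold of 0.05, where 25.1% of all genes were called higher and 21.7% lower. The PBS libraries behind the baseline calls are part of this test, so it is not independent of those calls. Its 2 libraries of a line differ in treatment, so its p-values do not measure the spread between replicate cultures. Any difference in CBC concentration between the lines is also part of the estimates. The estimates in edgeR's quasi-likelihood test were 1.54 for HMOX1 (SE 0.21, adjusted p = 0.000916), 1.15 for HMOX2 (SE 0.22, adjusted p = 0.00446), 1.04 for NCOA4 (SE 0.21, adjusted p = 0.00495) and 1.01 for BLVRA (SE 0.23, adjusted p = 0.00943). They were -0.93 for FTH1 (SE 0.16, adjusted p = 0.00298) and -1.02 for FTL (SE 0.16, adjusted p = 0.00156). TFRC (-0.51, adjusted p = 0.0599), BLVRB (-0.15, adjusted p = 0.687) and FECH (0.13, adjusted p = 0.757) did not pass this test.

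Under CBC the gaps between the lines were narrower for HMOX1, HMOX2, FTH1, FTL, NCOA4 and TFRC and wider for FECH, without a test of these differences. HMOX1 was higher in PANC-1 cells by 1.34 on the log2 scale (1.31 to 1.37) among the CBC libraries. BLVRB and FECH, which were lower in PANC-1 cells among the controls, were higher there among the CBC libraries, by 0.44 (0.35 to 0.52) and 0.77 (0.63 to 0.90).

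**Figure D4:**
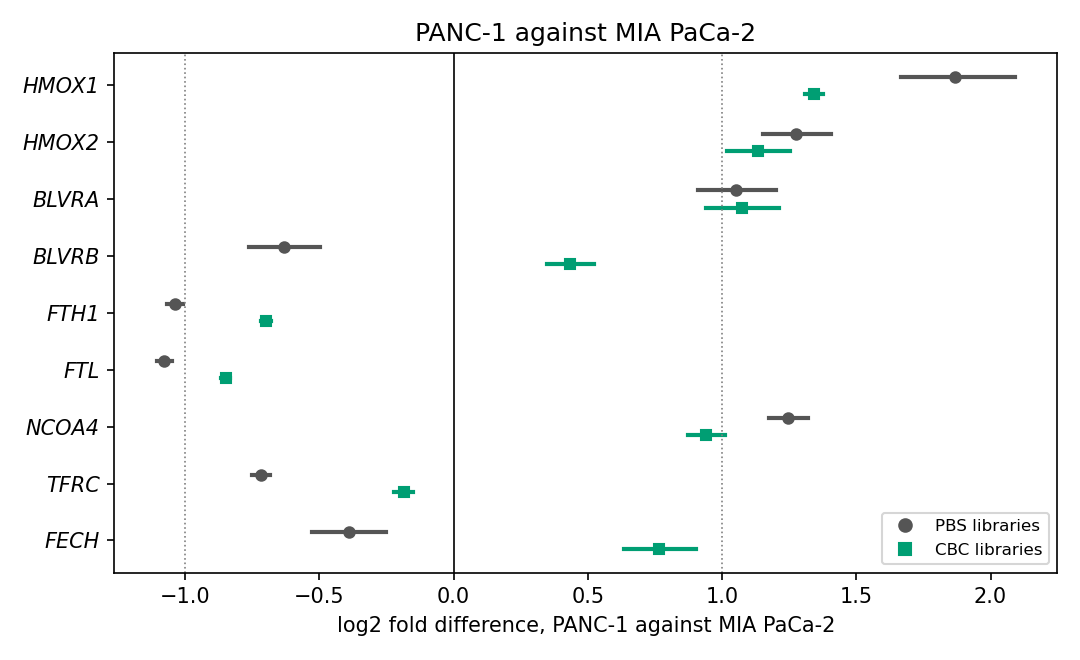
Log2 difference of PANC-1 against MIA PaCa-2 for the 9 detected members, among the PBS libraries (grey circles) and among the CBC libraries (green squares), with bars for the 95% counting interval and dotted lines at the 2-fold threshold. HMOX1, HMOX2, BLVRA and NCOA4 lie right of 0 in both, FTH1, FTL and TFRC lie left of 0 in both, and BLVRB and FECH lie on different sides.

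The promoters of 8 members, from 250 bases before to 50 after the start, were searched on both strands in RefSeq's table for GRCh38 for motifs of stress-responsive factors. HMOX1 and FTH1 were not matched in this table. The antioxidant response element core TGACNNNGC, which can overlap the AP-1 site TGACTCA, was found once in the FECH promoter and once in 1 of the 2 NCOA4 promoters, and 13.3% of 35116 promoters held it. The E-box CACGTG was found once in 1 of the 2 HMOX2 promoters and in 7.26% of all promoters. TGACTCA (4.95% of all promoters) and the C/EBP-ATF element TGATGNAA (3.62%) were found in none of the 8. BLVRA, BLVRB, FTL, SLC40A1 and TFRC held no match to these 4 motifs in the window.

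A list of 9 genes held factors known to act at the HMOX1 promoter, and KEAP1, which acts on such a factor. Of the 9, 3 rose across both lines (edgeR's quasi-likelihood test) and 0 fell, beside 2.26% and 2.45% of all tested genes. MAFF, a small MAF partner protein, was higher by 2.62 on the log2 scale in MIA PaCa-2 and by 1.38 in PANC-1 cells (adjusted p = 0.0230). MAFG, of the same family, had 1.64 and 0.88 (adjusted p = 0.0334), and ATF4, the effector of the integrated stress response, had 1.57 and 0.95 (adjusted p = 0.0229). ATF4 was named here because it passed the test. NFE2L2, which encodes the activator NRF2, had 0.55 and 0.37 (adjusted p = 0.235) and BACH1, the heme-sensing repressor, had 0.66 and 0.47 (adjusted p = 0.228). Neither passed the test, as was the case for KEAP1, the adaptor for NRF2 degradation (0.10 and -0.14, adjusted p = 0.977). NFE2L2, BACH1 and KEAP1 were named after their values were seen.

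The genes whose pattern lay nearest to that of HMOX1, over 4 libraries, were BEX2, RAB39B and DDIT3. Likeness was the Euclidean distance over the log2 fold changes in both lines and the baseline difference of the lines, among the 10067 genes whose mean reached 10 CPM. BEX2 (distance 0.942) had 10 and 851 counts in MIA PaCa-2 cells with PBS and CBC, and 54 and 2353 in PANC-1 cells. RAB39B (1.06), a vesicle-traffic GTPase, had 7 and 552 counts in MIA PaCa-2 cells, and 59 and 1798 in PANC-1 cells. DDIT3 (1.90), which encodes the stress-induced factor CHOP, had 192 and 4615 counts in MIA PaCa-2 cells, and 532 and 5353 in PANC-1 cells. All 3 share with HMOX1 a higher level in PANC-1 than in MIA PaCa-2 controls, which the measure itself selects. BEX2 and RAB39B reached a mean of 10 CPM only through their CBC libraries, with at most 2.37 and 2.59 CPM in the controls. Their baseline differences rest on few counts, with counting intervals of 1.41 to 3.54 and 1.91 to 4.42 on the log2 scale. Among the CBC libraries, DDIT3 differed between the lines by 0.07, where HMOX1 differed by 1.34.

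Beyond the members, 81 further genes of heme and iron metabolism were listed, of which 71 were tested across both lines. Of these, 2 rose (LCN2 and ISCU) and 1 fell (SLC39A8) in edgeR's quasi-likelihood test, beside 2.26% and 2.45% of all tested genes. The median of the 71 was -0.10, beside 0.020 over all genes. LCN2, a siderophore-binding protein that can carry iron, had 4 and 295 counts in MIA PaCa-2 cells with PBS and CBC, and 1 and 218 in PANC-1 cells (adjusted p = 0.00559), and it was named after its values were seen because it passed the test. With so few control counts, the counting interval of its log2 change ran from 4.68 to 7.94 in MIA PaCa-2 and from 5.01 to 12.8 in PANC-1 cells. SLC39A8, a transporter of zinc, manganese and iron, had 2936 and 410 counts in MIA PaCa-2 cells, and 84 and 40 in PANC-1 cells (adjusted p = 0.0252). ISCU, the scaffold on which iron-sulfur clusters are built, had 780 and 1648 counts in MIA PaCa-2 cells, and 1256 and 3811 in PANC-1 cells (adjusted p = 0.0330). Within the lines, 1 of 67 listed genes was past 2-fold higher and 5 lower in MIA PaCa-2 cells, beside 11.5% and 8.97% of all tested genes. PANC-1 cells had 4 of 68 higher and 1 lower, beside 7.71% and 7.03% of all tested genes.

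Heme synthesis other than FECH had 12 tested genes, of which 0 passed the test across both lines in either direction, beside 2.26% of all tested genes higher and 2.45% lower. ALAS1, the rate-limiting enzyme in most tissues, differed by 0.99 on the log2 scale in MIA PaCa-2 and by 0.71 in PANC-1 cells (adjusted p = 0.0647, edgeR's quasi-likelihood test). CPOX, a mitochondrial enzyme of the pathway, had -1.55 and -0.48 (adjusted p = 0.131). In MIA PaCa-2 cells 2 of the 12 genes were past 2-fold lower, CPOX and ABCB10 (-1.001, at the threshold and named after its value was seen), where 8.97% of all tested genes were called lower, and the list's median was -0.39 there and 0.13 in PANC-1 cells.

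Of 9 tested genes of heme transport and binding, 0 passed the test across both lines, beside 2.26% of all tested genes higher and 2.45% lower. SLC48A1, which moves heme out of the lysosome, had 0.79 in MIA PaCa-2 and 0.82 in PANC-1 cells (adjusted p = 0.115, edgeR's quasi-likelihood test), and PGRMC1, a heme-binding membrane protein, had -0.67 and -0.56 (adjusted p = 0.141). Of 15 tested genes of iron uptake and intracellular transport, LCN2 rose and SLC39A8 fell, beside the same shares of all tested genes. SLC39A14, a relative of SLC39A8 that takes up iron not bound to transferrin, had 0.65 and 0.82 (adjusted p = 0.0730).

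Of 3 tested genes of iron export and systemic control, 0 passed the test across both lines, beside 2.26% of all tested genes higher and 2.45% lower. HFE, which binds the transferrin receptor, had -1.64 in MIA PaCa-2 and -0.51 in PANC-1 cells (adjusted p = 0.109, edgeR's quasi-likelihood test). BMP6, which induces hepcidin, had 0.39 and 1.04 (adjusted p = 0.129, edgeR's quasi-likelihood test). Its value in MIA PaCa-2 cells rests on 56 and 82 counts, with a counting interval of -0.11 to 0.91. The iron regulatory proteins and their turnover factors (4 tested) and the other mRNAs known to carry iron-responsive elements (5 tested) held 0 genes that passed, beside the same shares. ACO1 and IREB2, the iron regulatory proteins themselves, had -0.39 and -0.39 in MIA PaCa-2 cells and -0.18 and -0.20 in PANC-1 cells (adjusted p = 0.548 and 0.472). CDC42BPA and EPAS1, which carry iron-responsive elements, had -0.09 and -0.09 in MIA PaCa-2 cells and 0.63 and 0.49 in PANC-1 cells (adjusted p = 0.544 and 0.541, edgeR's quasi-likelihood test). The EPAS1 value in MIA PaCa-2 cells rests on only 26 and 27 counts, with a counting interval of -0.93 to 0.74. Of 24 tested genes of iron-sulfur cluster assembly, ISCU rose and none of the others passed, beside the same shares of all tested genes. NFS1, the sulfur donor, had -1.31 in MIA PaCa-2 and -0.11 in PANC-1 cells (adjusted p = 0.274, edgeR's quasi-likelihood test).

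**Figure D5:**
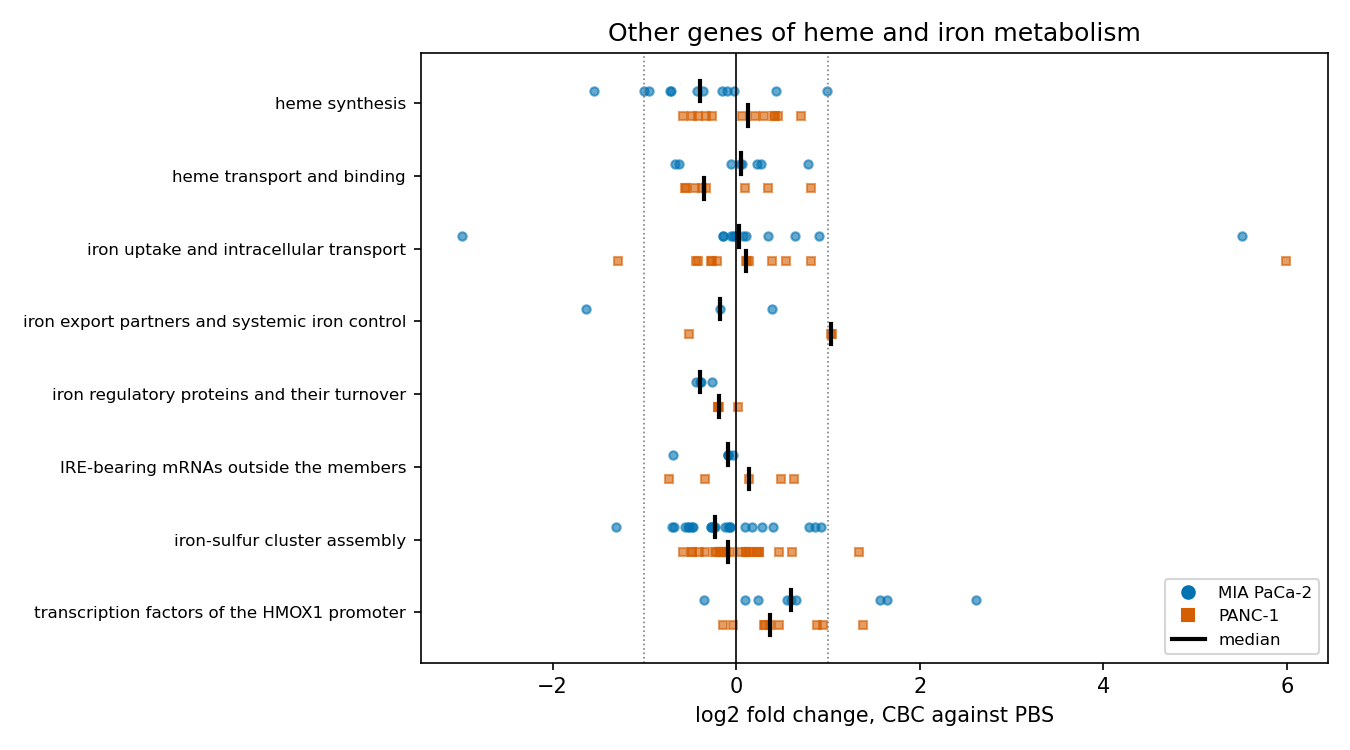
Log2 fold change after CBC against PBS of the other listed genes that were tested in each line, by list, with circles for MIA PaCa-2, squares for PANC-1, black bars for the list's median and dotted lines at the 2-fold threshold. Most genes lie between the dotted lines, and LCN2 stands at 5.52 and 5.99 and SLC39A8 at -2.99 and -1.29. The list for the HMOX1 promoter, which includes KEAP1, has medians of 0.60 and 0.37.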

How the data were processed

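Poly(A)-selected RNA of 4 libraries (2 cell lines, PBS or CBC) was used, grouped by the labels. The authors trimmed with cutadapt 2.7 and used STAR for alignment to GRCh38 and HTSeq for counting on Ensembl genes, and they deposited the raw counts, with no filter on low counts. The versions of STAR and HTSeq and the strand setting of the counting are not given in the sources used here. The libraries were directional, but without that setting reads of overlapping antisense genes cannot be assigned with certainty. The deposited signal per library is a CPM on TMM-scaled library sizes, and it differed from the same quantity computed from the counts by a relative 6.84e-09 at most. No values of the authors' own comparisons were used.

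Of 58233 identifiers, 57392 had a symbol and position in GENCODE release 44. Log2 fold changes used edgeR 4.0.16 in R 4.3.3 (TMM over 4 libraries, prior count 2), and intervals used scipy 1.17.1. The quasi-likelihood test used the 16381 genes kept by edgeR's filter, and its common coefficient of biological variation was 23.0%. Libraries were paired by cell line. Across genes, deviations of paired libraries from the mean of their treatment correlated at 0.923. With 2 lines, these deviations restate the difference between the lines in each treatment, so the value is no separate check of the pairing. The quasi-likelihood test was also run on simulated counts with independent noise and the same change in both lines. That setting does not cover changes that differ between the lines, and its outcome is not given here. Total counts of 21742775 to 27903667 set the counting precision. The lists, the members and the rule for named genes (all members, at most 2 genes of each other list with the largest mean absolute change among genes whose mean reached 10 CPM, and the 3 genes nearest to HMOX1) were chosen with earlier results of these data known. Alternatives changed the filter, prior count or pseudocount, scaling, block, tool (DESeq2 1.42.0) and pseudogene counts. Protein sequences were not used here.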

Additional observations from a re-analysis of the deposited data

Results flagged for a closer look

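FECH was set aside for a closer look because its level moved in opposite directions in the 2 lines, with both counting intervals away from 0. The log2 fold change after CBC was -0.66 (-0.80 to -0.52) in MIA PaCa-2 and 0.50 (0.37 to 0.63) in PANC-1 cells, so the change in PANC-1 cells exceeded that in MIA PaCa-2 cells by 1.16. The difference was not tested, since each line has 1 library per treatment.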

How the results depend on the processing

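Each condition had 1 library, so alternatives within a line show how values depend on processing and not how they vary between cultures. Calls past 2-fold of the members were the same under every alternative within a line, and at baseline only BLVRA crossed the threshold, with library totals. Scaling by library totals moved the median of all genes at baseline by -0.13. No result changed sign while called. Without a filter on low counts, the genes past 2-fold numbered 3249 higher and 2567 lower in MIA PaCa-2, 2537 and 2310 in PANC-1, and 5714 and 5164 for the lines at baseline. With at least 1 CPM in both libraries they numbered 1039 higher in MIA PaCa-2, and 2066 higher and 1528 lower at baseline. The deposited CPM with a pseudocount of 1 gave 680 higher in PANC-1.

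In the test across both lines, leaving out the block for the cell line gave 0 genes higher and 0 lower and 0 members higher in edgeR, where 354 genes and 1 member had an unadjusted p under 0.05. With the block, DESeq2 gave 579 higher and 717 lower, and no filter gave 1056 and 1007. For the cell line, leaving out the block for treatment gave 2498 genes higher and 1753 lower and 0 members lower, and at least 1 CPM in every library gave 2571 higher. HMOX1, FTH1 and FTL lost their calls in both tests without the block, and kept them under the other tools, scalings and filters. BLVRB passed across both lines without a filter (adjusted p = 0.00736) and TFRC passed between the lines with library totals (adjusted p = 0.0414). With only the PANC-1 or only the MIA PaCa-2 pair, the value across both lines was 1.47 or 0.40 for BLVRB and -0.20 or -0.73 for TFRC.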

Other observations

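Among the listed genes of iron uptake, several were near-absent from 1 of the lines before treatment. STEAP1 and STEAP2, of a family of membrane metalloreductases, had 0 counts in both MIA PaCa-2 libraries, and in PANC-1 cells STEAP1 had 789 counts with PBS and 1021 with CBC and STEAP2 had 1023 and 1066. CYBRD1, another iron-reducing membrane protein, showed the reverse order, with 2683 and 2704 counts in MIA PaCa-2 cells and 3 and 1 in PANC-1 cells. EPAS1, the hypoxia-inducible factor whose mRNA carries an iron-responsive element, had 26 and 27 counts in MIA PaCa-2 cells and 5877 and 9892 in PANC-1 cells. Of the 69 listed genes tested at baseline, 13 were past 2-fold higher and 7 lower in PANC-1 cells, against 24.0% and 18.0% of all tested genes. These genes were named after their values were seen.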
